A study of Mus musculus with 384 samples.

Results

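AFX6 is a mouse epiblast-derived stem cell (EpiSC) line, kept in AFX, an N2B27 medium with activin A, Fgf2 and the tankyrase inhibitor XAV939, and labelled as primed. Of 96 sorted AFX6 cells, 66 had at least 3000000 summed counts. The members were selected on one measured value, the number of genes with at least 1 count in the cell: 21 cells had under 10000 detected genes (few-gene cells), 29 had 10500 or more (many-gene cells) and 16 lay between the limits. The highest cells under the lower limit had 9900, 9965 and 9974 genes and the next had 10028, 10034 and 10042, while 10415, 10480 and 10493 lay just under the upper limit and 10535, 10580 and 10610 just above it. The series holds 384 Smart-seq2 cells, 96 from each of 4 lines, of which 326 passed the same minimum: AFX6, the EpiSC line AF32 in activin A and Fgf2 without XAV939, and the formative stem (FS) cell lines 5ar1 and 5ar2. The FS lines were kept in less activin A with XAV939 and a retinoic acid receptor inverse agonist. Every AFX6 cell came from 1 line in 1 medium, and cells of a line are not replicates. The groups were set by detection over all genes, so that each gene helped to form them. Every value below is therefore a description, without a test and without a p-value.

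EpiSCs divide rapidly, and a cell caught at random can be anywhere in the cell cycle. Genes of the G1/S transition and of DNA replication are transcribed before and during S phase, whereas genes of the spindle, the mitotic kinases and the anaphase-promoting complex peak in G2 and mitosis. Ribosomal protein genes encode the structural proteins of both ribosome subunits, and their mRNAs are short and abundant in growing cells.

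Few-gene cells had 9000 to 9974 detected genes (median 9521) and many-gene cells 10535 to 11903 (median 10918). Summed counts were 3022666 to 5912984 in few-gene cells (median 4885210) and 3476173 to 6686007 in many-gene cells (median 5125265). These ranges overlapped in large part, but the shallowest few-gene cells were also those with the most reads on a ribosomal RNA locus described below. The 6 few-gene cells with over 2% of counts on that locus had 3022666 to 3687400 counts. Every other few-gene cell had at least 3828015. Detected genes and depth had a Spearman rho of 0.173 over the 66 cells. When each cell was thinned to 3000000 counts, the medians were 8915 and 10104 genes, a difference of 1189 against 1397 without thinning. At 1000000 counts per cell the difference was 1655 genes, or 18.3% of the many-gene median. The group medians thus remained apart at equal depth.

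**Figure D1:**
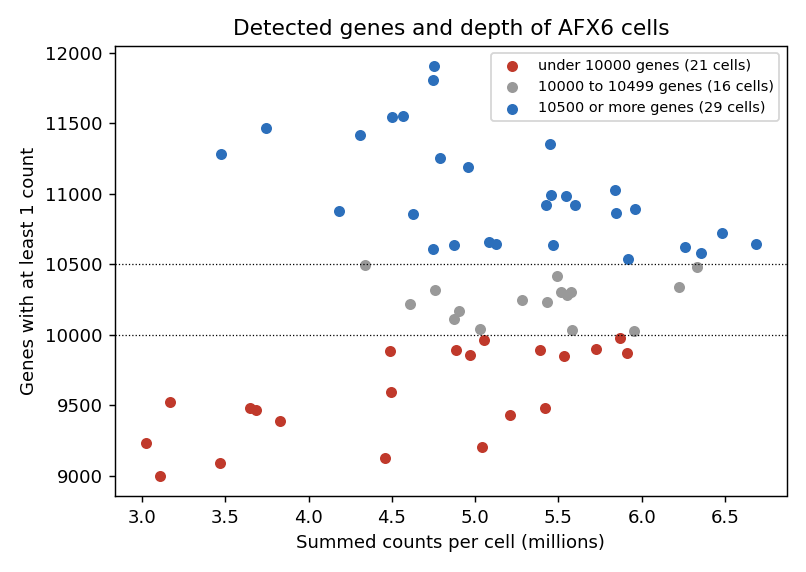
Genes with at least 1 count against summed counts (axis in units of 1000000), with 1 point for each of the 66 kept AFX6 cells and dotted lines at 10000 and 10500 genes. Both outer groups span most of the range of depth, from 3022666 counts in the shallowest few-gene cell to 6686007 in the deepest many-gene cell.

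The missing genes were mostly those of 5 to 100 CPM on average. Among 4790 genes with a mean of 20 to 100 CPM (counts per 1000000 counts of a cell), a few-gene cell had a median of 3665 with a count and a many-gene cell 4277. The medians were 1520 and 1969 among 3492 genes of 5 to 20 CPM and 1026 and 1214 among 3478 genes of 1 to 5 CPM. Among 2098 genes of at least 100 CPM the medians were 2068 and 2094, and among 9890 genes of under 1 CPM they were 1344 and 1363. Counts were also more concentrated in few-gene cells. The 50 genes with the most counts took 17.1% to 30.5% of a few-gene cell (median 21.1%) and 15.9% to 22.2% of a many-gene cell (median 18.7%).

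Reads on a ribosomal RNA locus of chromosome 17 set part of the few-gene cells apart. The locus holds the lincRNA Gm26917 (chr17:39843013-39846341, plus strand) and the rRNA gene CT010467.1 (chr17:39846353-39848827, minus strand) in GRCm38. It took 0.327% to 7.20% of counts in few-gene cells (median 0.951%) and 0.327% to 0.741% in many-gene cells (median 0.577%). In 15 of 21 few-gene cells the share was above that of every many-gene cell. It exceeded 1% in 10 few-gene cells, in 2 of the 16 cells between the limits and in 0 many-gene cells. The part of this share in the results below was not tested, and a limit on it also leaves out the shallowest few-gene cells. Among cells with at most 1% on the locus (11 few-gene and 29 many-gene cells), a limit chosen after the values were seen, the log2 ratios were -1.16 for G2/M, -0.39 for G1/S, -0.41 for actin and microtubules and +0.31 for ribosomal proteins, where all cells of the groups gave -1.15, -0.54, -0.51 and +0.68. The signs of some small ratios turned there: core and primed pluripotency had +0.08, the Nodal pathway +0.24, glycolysis +0.17, ribosome biogenesis -0.04 and chromatin regulators -0.03.

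Core and primed markers were found in both groups. The sum of the naive list, low in both, was lower in few-gene cells. The naive factors Klf4, Esrrb and Tfcp2l1 were found in at most 4 cells of a group. Pou5f1, the core pluripotency factor, stood at 529.0 CPM in few-gene and 523.4 CPM in many-gene cells. This and the following pairs of levels are CPM of counts summed over the cells of a group, few-gene cells first. Otx2, a factor of post-implantation epiblast, stood at 128.0 and 106.1 CPM, Nanog at 131.5 and 169.7 CPM and Dnmt3b, a de novo DNA methyltransferase, at 469.8 and 548.0 CPM. Sox2 was low in both, at 6.318 and 5.82 CPM. Pou3f1 was at 1.452 and 6.08 CPM. The list of naive pluripotency, of which 11 genes were measured, summed to 0 to 133.5 CPM in few-gene cells (median 0.522) and 0 to 437.6 CPM in many-gene cells (median 33.5), with a log2 ratio of -1.86 and of -1.10 with at most 1% on the rRNA locus. Within the groups the log2 SD of this sum over cells was 2.721, larger than the ratio. The 1 list member above 20 CPM was Fgf4, an Fgf ligand of the early epiblast, at 8.27 and 38.5 CPM. The naive factors Klf4 and Esrrb had no count in few-gene cells and were found in 1 many-gene cell each, Tfcp2l1 was found in 4 few-gene and 1 many-gene cell, and T and Mixl1, of the primitive streak, were under 1 CPM. Of the neural markers, Sox1 was under 1 CPM, Pax6 at 5.03 and 2.288 CPM and Tubb3 at 5.58 and 17.2 CPM. Eomes stood at 9.50 and 7.74 CPM and Foxa2 below 1 CPM.

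Most markers of other cell types were low or absent, except in the extraembryonic endoderm list. The blood and endothelial, trophoblast and germ cell lists had a median sum of 0 CPM in both groups. The 7 measured fibroblast or feeder markers summed to medians of 0.542 CPM in few-gene and 12.8 CPM in many-gene cells, and none reached a mean of 20 CPM. The extraembryonic endoderm list was not low: its 5 measured genes summed to medians of 485.8 CPM in few-gene and 380.5 CPM in many-gene cells. Of these genes 1 reached a mean of 20 CPM, and the median cell of each group had a count for 1 of them. The sum thus describes little more than 1 gene and not the list as a whole. Across 20 genes of core and primed pluripotency the summed level was 2407 to 5013 CPM in few-gene cells (median 3436) and 1852 to 6026 CPM in many-gene cells (median 3576). Its log2 ratio of few-gene over many-gene cells was -0.11. Of the 14 members above 20 CPM, 2 were past 2-fold, in opposite directions, beside 11.7% of all 6888 genes above 20 CPM. The 2 members were Fgf5, a ligand of the post-implantation epiblast, at 16.4 against 43.5 CPM, and Trim71, an RNA-binding ubiquitin ligase, at 41.6 against 16.0 CPM. By medians per cell the log2 ratio of Trim71 was -2.06, and that of Fgf5 was +0.28 when the limits were applied to thinned cells.

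Counts were summed over the cells of each group to compare genes, and a pair of levels joined by "against" below gives these summed levels, few-gene cells first. Of 6888 genes whose mean over the 66 cells reached 20 CPM, 259 were at least 2-fold higher in few-gene cells (3.76%) and 550 at least 2-fold higher in many-gene cells (7.98%). The median gene had a log2 ratio of -0.09. Median-of-ratios scaling moved every ratio by -0.11 and gave 193 genes higher in few-gene and 687 higher in many-gene cells, a split of 21.9% against 32.0% higher in few-gene cells without that scaling. The ratios below are not shifted in this way. A single cell can carry a summed ratio: without the highest cell of each group for each gene, 199 genes were higher in few-gene and 1112 in many-gene cells.

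Genes of G2/M and mitosis were lower in few-gene cells. The 31 genes of this list summed to 300.2 to 15432 CPM in few-gene cells (median 5719), 10224 CPM at the median between the limits, and 734.8 to 37817 CPM in many-gene cells (median 12504). The groups overlapped, and a few-gene cell had the higher sum in 24.0% of pairs of 1 few-gene and 1 many-gene cell. The log2 ratio of the mean sums was -1.15. Of the 31 members, all above 20 CPM, 17 were at least 2-fold higher in many-gene and 0 in few-gene cells, beside 7.98% of all genes. The median member had a log2 ratio of -1.10, with 27 members below 0 and 4 above it. Low sums occurred in both groups: 4 of 21 few-gene cells, 2 of 16 between the limits and 2 of 29 many-gene cells were under 1000 CPM.

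Nusap1, which bundles spindle microtubules, ranged from 0 to 282.6 CPM in few-gene cells (median 1.579) and from 0.315 to 1404 CPM in many-gene cells (median 253.0). From summed counts it was 5.34-fold higher in many-gene cells (95% counting interval 5.20 to 5.49, which covers the counting of reads and not the spread between cells). Aurkb, the kinase of the chromosomal passenger complex, had medians of 0.947 and 535.9 CPM and summed levels of 93.6 and 451.3 CPM. The median few-gene cell thus had under 2 CPM of either gene, while 1 few-gene cell reached 1159 CPM of Aurkb. Ccnb1, the cyclin B that activates Cdk1 at mitotic entry, ranged from 0.542 to 1140 CPM in few-gene cells (median 123.7) and from 2.874 to 2817 CPM in many-gene cells (median 898.6). Its partner kinase Cdk1 was at 183.0 against 668.7 CPM from summed counts.

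Cdc20, an activator of the anaphase-promoting complex, had medians of 473.8 CPM in few-gene and 1076 CPM in many-gene cells, with a summed ratio of 0.585. The 4 members not lower in few-gene cells were Cks2, Ccnb2, Cenpe and Mki67. Mki67, a widely used proliferation marker, stood at 157.2 CPM in few-gene and 129.0 CPM in many-gene cells. These 4 were singled out after their values were seen.

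The promoters of G2/M genes are known for CHR elements, TTTGAA or close variants, at which the DREAM and MMB complexes bind, and for CCAAT boxes. To show these letters in the genes above, the 120 bases before the annotated start are printed from the RefSeq promoter table (GRCm38.p6) for the 5 members of highest mean CPM that hold both motifs there, 5′ to 3′ along the gene. Capitals mark TTTGAA or its reverse complement TTCAAA, and CCAAT or its reverse complement ATTGG. The windows are chr4:118437344-118437463 (minus strand) for Cdc20, chr2:164769809-164769928 (plus) for Ube2c, chr11:99024190-99024309 (minus) for Top2a, chr10:69352913-69353032 (minus) for Cdk1 and chr17:24251410-24251529 (minus) for Ccnf.
Cdc20: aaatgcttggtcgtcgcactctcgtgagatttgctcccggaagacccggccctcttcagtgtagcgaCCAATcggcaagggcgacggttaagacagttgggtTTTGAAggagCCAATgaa
Ube2c: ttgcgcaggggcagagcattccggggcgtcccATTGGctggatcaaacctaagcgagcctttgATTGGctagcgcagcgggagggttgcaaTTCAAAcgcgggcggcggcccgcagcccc
Top2a: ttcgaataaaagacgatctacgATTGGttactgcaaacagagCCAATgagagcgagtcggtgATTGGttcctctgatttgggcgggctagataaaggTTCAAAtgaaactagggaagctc
Cdk1: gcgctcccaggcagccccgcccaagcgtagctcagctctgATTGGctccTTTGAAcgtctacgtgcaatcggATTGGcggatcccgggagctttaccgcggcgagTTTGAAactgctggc
Ccnf: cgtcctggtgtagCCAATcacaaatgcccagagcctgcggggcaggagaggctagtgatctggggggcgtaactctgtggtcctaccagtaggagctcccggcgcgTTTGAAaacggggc
The TTTGAA nearest to the start lay 18 bases before it in Cdc20, 29 in Ube2c, 23 in Top2a, 15 in Cdk1 and 14 in Ccnf. From 250 bases before to 50 after the start, on either strand, TTTGAA occurred in 19 of the 26 G2/M genes with an entry (73.1%). It occurred in 20.2% of the 27025 genes of the promoter table, in 14.2% of 5476 genes measured in AFX6, in 3 of 24 G1/S genes and in 4 of 60 ribosomal protein genes. CCAAT occurred in 22 of the 26 G2/M genes (84.6%) and in 44.5% of the measured genes. Among genes at least 2-fold higher in many-gene cells that are outside the G2/M list, 16.9% of 421 held TTTGAA. A match of letters is a description and not a bound site. Ube2c, the ubiquitin-conjugating enzyme of the anaphase-promoting complex, was at 285.8 against 872.9 CPM, Top2a, which untangles sister chromatids, at 183.2 against 778.4 CPM, and Ccnf, cyclin F, at 119.9 against 492.3 CPM in few-gene and many-gene cells.

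Genes of G1/S and DNA replication were also lower in few-gene cells. The 31 genes summed to 1458 to 7360 CPM in few-gene cells (median 3642), 5306 CPM at the median between the limits, and 2532 to 10841 CPM in many-gene cells (median 5010). The log2 ratio of the mean sums was -0.54, and a few-gene cell was the higher of a pair in 23.7%. Of 28 members above 20 CPM, 7 were at least 2-fold higher in many-gene cells, beside 7.98% of all genes, and 0 in few-gene cells. The sum also moved with depth, at a Spearman rho of 0.452 over the 66 cells, and its ratio was -0.37 among cells of 4000000 to 6000000 counts (14 few-gene and 23 many-gene cells). Cdc6, which loads the replicative helicase, had medians of 0.341 CPM in few-gene and 46.3 CPM in many-gene cells, and was 7.28-fold higher in many-gene cells from summed counts. Cdc45, a part of that helicase at active forks, had medians of 0.947 and 124.0 CPM. Mcm7, one of its ring subunits, stood at 349.6 against 533.1 CPM. Dut, which clears dUTP, was at 412.9 against 425.0 CPM. Cyclins D1 and D2 lay above 0 in log2 ratio, with Ccnd1 at 110.5 against 67.0 CPM and Ccnd2 at 100.5 against 58.2 CPM, and were singled out after their values were seen.

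Cdkn1b, which encodes the Cdk inhibitor p27, was among the genes with the largest ratios the other way. Its values were 0 to 140.8 CPM in few-gene cells (median 35.6) and 0 to 37.5 CPM in many-gene cells (median 3.24). From summed counts it was 4.78-fold higher in few-gene cells (95% counting interval 4.50 to 5.10).

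The cells were also divided at the AFX6 median of the G2/M sum, a division chosen after the values were seen. A cut on this sum limits its range in each set, so a narrower G2/M difference follows from the cut itself. The G2/M level was not made equal between the groups. Under that median, 8596 CPM, there were 15 few-gene and 11 many-gene cells, and the G2/M ratio was -0.62. Their log2 ratios were -0.94 for G1/S genes, +0.74 for ribosomal protein genes and -0.42 for actin and microtubule genes. At or over that median there were 6 and 18 cells, with a G2/M ratio of -0.55 and with -0.16, +0.46 and -0.56 for those lists. Some lists had opposite signs in these sets of cells, such as p53 targets (+0.47 and -0.38) and RNA polymerase II and basal transcription (-0.23 and +0.33).

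Ribosomal protein genes were higher in few-gene cells. The 81 genes summed to 90658 to 247196 CPM in few-gene cells (median 125669), 104695 CPM at the median between the limits, and 70816 to 118695 CPM in many-gene cells (median 88948). The groups overlapped in part, a few-gene cell was the higher in 94.4% of pairs, and the log2 ratio of the mean sums was +0.68. All 81 members were above 20 CPM and had a ratio above 0, and 15 were at least 2-fold higher in few-gene cells, beside 3.76% of all genes. Restricted to cells with at most 1% of counts on the rRNA locus, the log2 ratio was +0.31 and 78 members stayed above 0. Over all 66 cells the sum and the locus share had a Spearman rho of 0.629. Reads of these genes can be shared with their processed pseudogenes, and uniquely mapped reads alone were counted, so the level of a single member is uncertain.

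**Figure D2:**
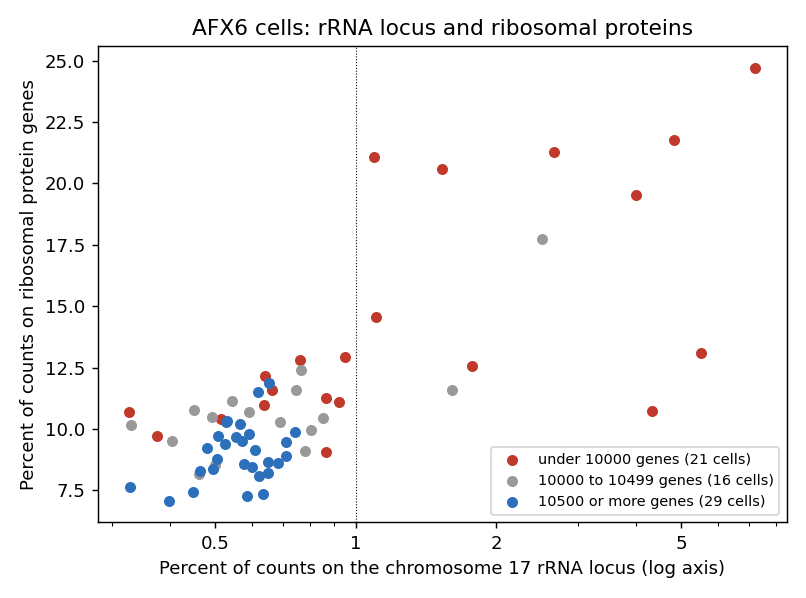
Percent of counts on ribosomal protein genes against percent on the chromosome 17 rRNA locus (log axis), with 1 point for each of the 66 kept AFX6 cells and a dotted line at 1%. All 29 many-gene cells lie at or under 0.741% on the x axis, and 10 few-gene cells lie beyond 1%.

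The ribosomal protein ratio followed coding length, taken as the longest coding sequence of the gene in GENCODE M21, without the stop codon. Over the 81 members the log2 ratio and the length had a Spearman rho of -0.77, across genes that share cells and libraries. The 39 members with under 450 coding bases had a median log2 ratio of +0.92, the 38 of 450 to 900 bases +0.62 and the 4 longer ones +0.22. Of the 15 members past 2-fold, 14 were under 450 bases. Rps29, of the small subunit, has 168 coding bases and ranged from 210.6 to 1264 CPM in few-gene cells (median 371.2) and from 119.3 to 325.0 CPM in many-gene cells (median 165.1). It was 2.566-fold higher in few-gene cells from summed counts. Rpl4, of the large subunit, has 1257 coding bases and medians of 4726 and 4246 CPM, with a ratio of 1.102. Rps2, with 906 coding bases, had medians of 6758 and 5388 CPM. Rps10 had the highest summed ratio, 2.629, but its medians lay the other way, at 2.612 CPM in few-gene and 5.69 CPM in many-gene cells. The relation with length was also found in the cells with at most 1% on the rRNA locus, at a rho of -0.78.

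Nuclear genes of oxidative phosphorylation, which encode subunits of the respiratory chain and ATP synthase, had a like relation in AFX6. Their 75 measured genes summed to 12119 to 25720 CPM in few-gene cells (median 21148) and 13749 to 22561 CPM in many-gene cells (median 19168). The log2 ratio of the mean sums was +0.17, a difference small beside the range of either group, and the median member had +0.42. Of 73 members above 20 CPM, 5 were at least 2-fold higher in few-gene cells and 0 in many-gene cells, beside 3.76% and 7.98% of all genes. With at most 1% on the rRNA locus the median member had +0.31. Log2 ratio and coding length had a rho of -0.77 over these 73 genes. The short Ndufa13, a subunit of complex I with 432 coding bases, stood at 256.0 against 116.3 CPM, and Atp5k, a subunit of ATP synthase with 213 coding bases, was 2.279-fold higher in few-gene cells. The long Atp5b and Atp5a1, the catalytic core of ATP synthase, stood at 2825 against 3249 CPM and at 1398 against 1688 CPM.

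Among other genes the relation was weak, at a rho of -0.09 over 6596 genes with both lists left out. Of these, the 443 measured genes under 450 coding bases had a median log2 ratio of +0.25, the 1479 of 450 to 900 bases -0.05, the 2580 of 900 to 1800 bases -0.20, the 1561 of 1800 to 3600 bases -0.22 and the 533 of at least 3600 bases +0.05. The part of transcript length in the ribosomal protein and respiratory chain ratios was not tested. These length classes were chosen after the values were seen.

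**Figure D3:**
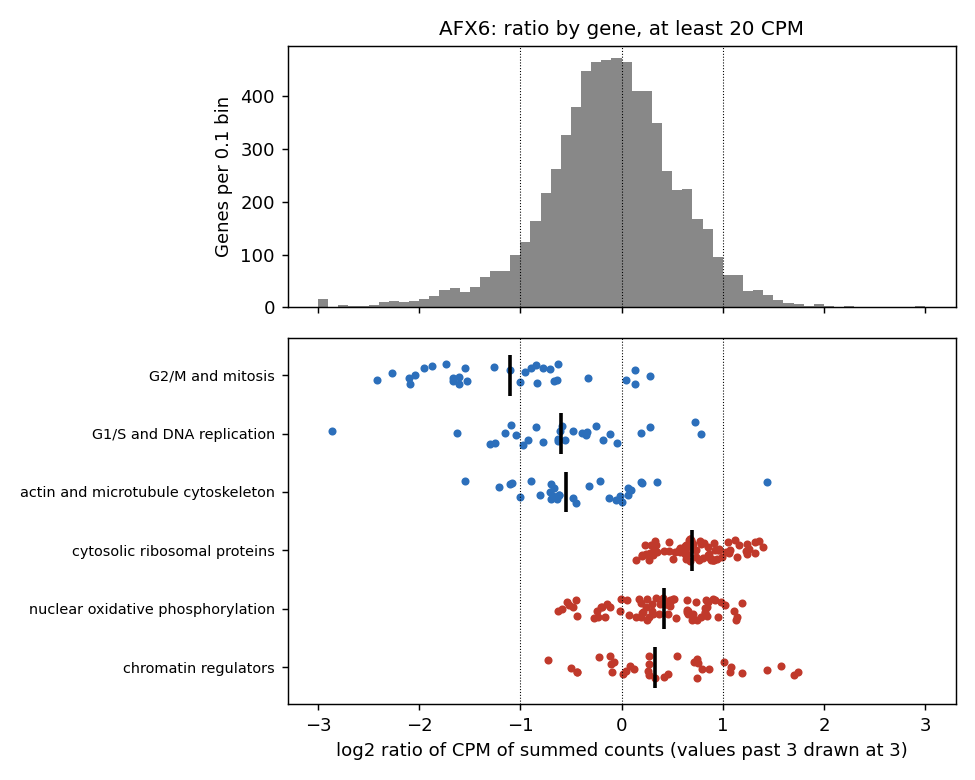
Log2 ratio of CPM from summed counts, few-gene over many-gene cells, for the 6888 measured genes (top, genes per bin) and for members of 6 lists (bottom, 1 point per gene, black bar at the median). The 81 ribosomal protein genes all lie right of 0, and the medians of the G2/M, G1/S and cytoskeleton lists lie at -1.10, -0.60 and -0.55.

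Genes of the actin and microtubule cytoskeleton were lower in few-gene cells. The 32 genes summed to 14026 to 28178 CPM in few-gene cells (median 19566), 27209 CPM at the median between the limits, and 16639 to 48066 CPM in many-gene cells (median 25932). The log2 ratio of the mean sums was -0.51, and a few-gene cell was the higher in 17.4% of pairs. Of 30 members above 20 CPM, 5 were at least 2-fold higher in many-gene cells and 1 in few-gene cells, beside 7.98% and 3.76% of all genes. Tubb4b, a beta-tubulin, had medians of 289.7 and 1295 CPM. Tubb5, the main beta-tubulin of dividing cells, had medians of 3701 and 5156 CPM. Actg1, gamma-actin, had medians of 2378 and 4603 CPM, although its highest few-gene cell reached 8476 CPM. Tmsb10, a short actin-binding peptide, went the other way: it ranged from 354.8 to 2058 CPM in few-gene cells (median 578.4) and from 108.6 to 781.6 CPM in many-gene cells (median 239.5), and the few-gene cell was the higher in 96.4% of pairs.

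**Figure D4:**
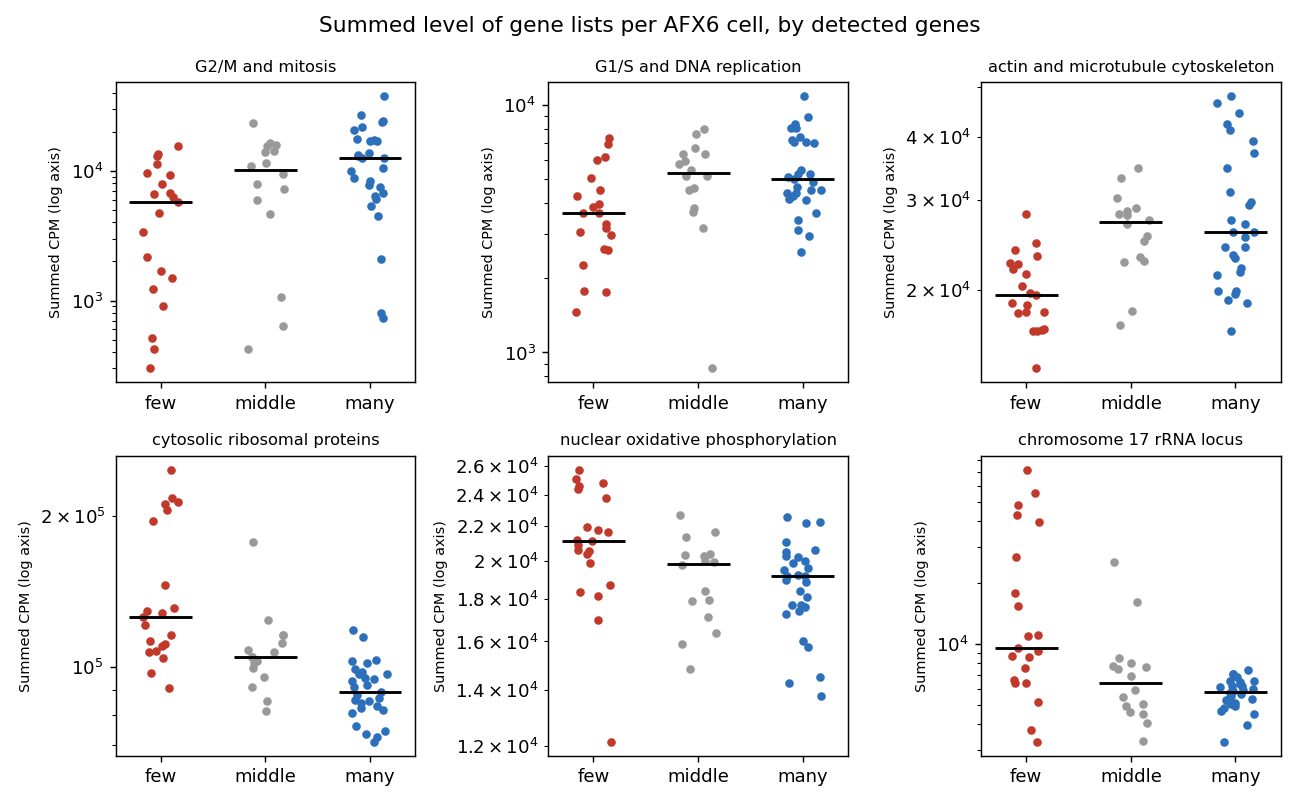
Summed CPM per AFX6 cell (log axis) of 5 gene lists and the chromosome 17 rRNA locus in few-gene (21), middle (16) and many-gene (29) cells, with black bars at the medians. G2/M medians are 5719, 10224 and 12504 CPM, and ribosomal protein medians are 125669, 104695 and 88948 CPM.

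Chromatin regulators gave a list ratio of +0.20, with sums of 2599 to 6251 CPM in few-gene cells (median 3588) and 2569 to 4452 CPM in many-gene cells (median 3205). Of 35 members above 20 CPM, 8 were at least 2-fold higher in few-gene cells, beside 3.76% of all genes, and 0 in many-gene cells. Chd2, a chromatin remodeller, had medians of 37.2 and 7.93 CPM. Kmt2d, an H3K4 methyltransferase, was at 31.2 against 9.59 CPM from summed counts, with medians of 3.28 and 6.04 CPM, so that its ratio rested on a few cells. With at most 1% on the rRNA locus the median member of the list had -0.07 in place of +0.33. Smarca4 and Hdac2, the members of highest mean CPM, were at 291.7 against 282.0 and 336.6 against 455.1 CPM.

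Lists of metabolism and stress had ratios of either sign. Cholesterol and fatty acid synthesis genes had a log2 ratio of -0.35, and this sum also moved with depth at a rho of 0.457. Hmgcs1, an early enzyme of the pathway, stood at 824.2 against 1167 CPM. ATF4 response genes had a ratio of -0.35, with Asns, asparagine synthetase, at 582.7 against 813.3 CPM and Slc7a5, an amino acid transporter, at 25.9 against 64.1 CPM. Chaperones had -0.23, and Hsph1 was at 12.9 against 59.3 CPM. Endoplasmic reticulum stress genes had +0.26, with Hspa5, the chaperone BiP, at 982.4 against 660.9 CPM. Glycolysis, the proteasome, splicing and translation factors lay between -0.14 and 0.00, although Eif4e, the cap-binding factor, was at 203.8 against 366.7 CPM. Ribosome biogenesis factors had +0.14 beside +0.68 for the ribosomal proteins themselves, with Npm1 at 5235 against 5085 CPM.

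Signalling and identity lists held few measured genes. Wnt targets had a log2 ratio of -0.69, primitive streak and endoderm genes -0.48 and mesenchymal genes -0.39. These lists had 1, 1 and 3 members above 20 CPM. Nodal pathway genes had -0.06, with Lefty1, an inhibitor of Nodal, at 768.3 against 623.1 CPM. ERK feedback genes had -0.35, with Dusp6, an ERK phosphatase, at 398.7 against 391.0 CPM and Dusp4 at 16.2 against 56.1 CPM. Epithelial genes had -0.35, with 3 of 14 members at least 2-fold higher in many-gene cells, beside 7.98% of all genes. Among them Krt19 was at 138.1 against 408.9 CPM and Cldn3, a tight-junction claudin, at 5.83 against 36.0 CPM, while Epcam, an adhesion molecule of epithelia, was at 1325 against 1021 CPM. Immediate early, p53 target, apoptosis and interferon lists had ratios between -0.45 and +0.16. Their members lay on both sides of 0, with Ier3 at 93.9 against 34.4 CPM, Sfn at 50.5 against 199.9 CPM and Irf1 at 15.0 against 59.6 CPM. None of these 3 directions held throughout: Ier3 had a log2 ratio of -3.87 and Sfn of +1.174 by medians per cell, and Irf1 of +0.94 with limits on thinned cells. Replication-dependent histones, whose mRNAs lack poly(A) tails, had +0.79 with only 6 members above 20 CPM, and -0.22 in cells with at most 1% on the rRNA locus.

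Single genes were also ranked by ratio, among those whose median over cells differed at least 1.5-fold the same way. The 12 leading genes higher in many-gene cells, of 523 such genes, were Usp4, Ankle1, Mtfr2, Cep72, Epha1, Ctdp1, Hyls1, Anxa3, Nek2, Kank2, Fam83d and Cyth3. Usp4, a deubiquitinase, ranged from 0 to 65.1 CPM in few-gene cells (median 0.192) and from 0 to 183.8 CPM in many-gene cells (median 61.1). Nek2, a centrosomal kinase of mitosis, ranged from 0 to 246.5 CPM (median 0.261) and from 0.169 to 372.2 CPM (median 139.0), and the few-gene cell was the higher in 9.20% of pairs. Fam83d, a spindle protein, had medians of 0.181 and 95.7 CPM. None of the 12 is in the G2/M or G1/S list (0 members), although Nek2 and Fam83d act in mitosis and Hyls1 and Cep72 at the centriole and centrosome. In all 12 the median few-gene cell lay under 1 CPM, which is a few counts per cell at this depth.

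Of 113 such genes higher in few-gene cells the 12 leading ones were Gm23935, Lars2, Cdkn1b, Gm26917, Dmxl1, Dhx9, Per1, Chd2, Plag1, Dancr, Bola3 and Spast. Gm23935 ranged from 0.169 to 933.4 CPM in few-gene cells (median 21.1) and from 1.119 to 21.6 CPM in many-gene cells (median 4.72), with a log2 ratio of 4.71. Lars2, the mitochondrial leucyl-tRNA synthetase, had medians of 116.9 and 37.1 CPM and a highest few-gene cell of 1120 CPM. Gm26917 is the lincRNA of the rRNA locus described above. With at most 1% on that locus the log2 ratios were 1.341 for Gm23935 in place of 4.71, 0.45 for Lars2 in place of 2.394 and 0.52 for Gm26917 in place of 2.02, and 237 genes were at least 2-fold higher in few-gene and 791 in many-gene cells. Per1, a clock gene, had medians of 7.34 and 0.464 CPM. Of all 259 genes higher in few-gene cells 91.5% were protein-coding, of the 550 higher in many-gene cells 99.3%, and of all measured genes 98.0%.

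The same limits were applied to the other lines. Among FS cells 1 of 90 kept cells of 5ar1 and 0 of 90 of 5ar2 had under 10000 genes, so no ratio was formed there. In AF32, 18 of 80 kept cells were few-gene and 26 many-gene cells. Of its 7216 genes above 20 CPM, 335 were at least 2-fold higher in few-gene cells (4.64%) and 520 in many-gene cells (7.21%). AF32 cells are from another line and another medium, so the lines are set side by side without a test.

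In AF32 the G2/M sum was 228.5 to 8759 CPM in few-gene cells (median 1688) and 666.3 to 29273 CPM in many-gene cells (median 6518). Its log2 ratio was -2.33, against -1.15 in AFX6, and 30 of 31 members were at least 2-fold higher in many-gene cells, beside 7.21% of all genes. Ribosomal protein genes had +0.28, with 77 of 80 members above 0, beside 3401 of all 7216 genes. Past 2-fold there were 0 members, beside 4.64% of all genes higher in few-gene cells. Their log2 ratio and coding length had a rho of -0.66. For the oxidative phosphorylation genes of AF32 that rho was -0.35, against -0.77 in AFX6. G1/S genes had -0.30. The actin and microtubule list had -0.08 in AF32 against -0.51 in AFX6, with Actg1 at 5057 CPM in few-gene and 4251 CPM in many-gene cells, whereas Tubb4b was lower in few-gene cells of AF32 as well, at 305.2 against 1316 CPM. ATF4 response genes had -0.69, and Cdkn1b a log2 ratio of 0.42. Not every list kept its AFX6 sign. Cholesterol and fatty acid synthesis had +0.16 in AF32, ERK feedback +0.04 and immediate early genes +0.20, against -0.35, -0.35 and -0.45. Wnt targets had +0.15, primitive streak and endoderm +0.37 and mesenchymal genes +1.01, against -0.69, -0.48 and -0.39. Chromatin regulators had -0.06, p53 targets -0.40 and ribosome biogenesis -0.34, against +0.20, +0.16 and +0.14. The rRNA locus took 0.613% to 10.8% of counts in few-gene cells of AF32 (median 1.484%) and 0.497% to 4.37% in its many-gene cells.

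**Figure D5:**
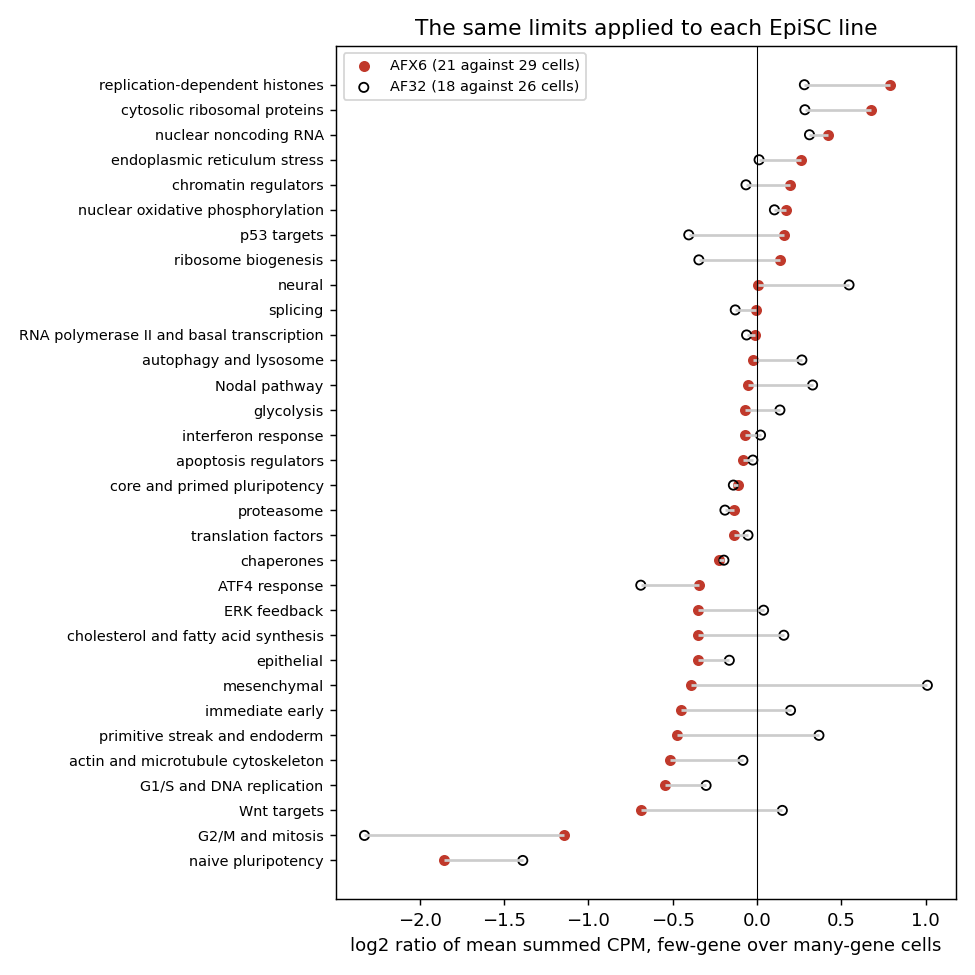
Log2 ratio of mean summed CPM, few-gene over many-gene cells, for 32 gene lists in AFX6 (filled points, 21 against 29 cells) and AF32 (open points, 18 against 26 cells). Naive pluripotency, a list of low level, lies at -1.86 and -1.39, G2/M at -1.15 and -2.33, and the actin and microtubule list at -0.51 and -0.08. In AF32 the naive sums have medians of 0.269 and 0.370 CPM with 0 members above 20 CPM. A few-gene cell is the higher there in 46.2% of pairs.

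Of 6357 genes measured in both lines, 118 were at least 2-fold higher in many-gene cells of both. They are 23.7% of the 498 in AFX6 and 26.3% of the 448 in AF32, where 7.05% of all genes passed in AF32. Of those higher in few-gene cells 25 were shared, 12.8% of 195 and 11.9% of 211, where 3.32% of all genes passed in AF32.

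Across all kept cells of a line, the G2/M sum and detected genes had a Spearman rho of 0.375 in AFX6 (66 cells) and 0.371 in AF32 (80 cells). The ribosomal protein sum had a rho of -0.80 in AFX6 and -0.42 in AF32. The actin and microtubule sum had 0.566 and 0.045. In the FS lines 5ar1 and 5ar2 (90 cells each) the G2/M sum had 0.373 and 0.384. Ribosomal proteins had -0.31 and -0.47 there, and actin and microtubules 0.095 and 0.057. Cells of a line share their culture and preparation, and detected genes and list sums come from the same counts.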

How the data were processed

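Single cells were sorted into plates, 1 per well, and libraries were made by Smart-seq2, which carries no molecular identifiers. No doublet caller was run. The authors aligned reads to GRCm38.p6 with STAR 2.7.3a and counted uniquely mapped reads per gene with featureCounts 2.0.0, per the labels and the study's methods. The deposited table of raw counts (31617 genes, 384 cells) was used as it stands, and 31565 genes received a symbol. A score from sctransform, deposited by the authors for the 326 kept cells, served only as an alternative, and the output of sctransform they hold is not given in the sources used here.

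Cells with at least 3000000 counts were kept. CPM were computed on all counted genes. Counts were summed over the cells of a group for genes, and list members were summed in CPM per cell and averaged. Genes whose mean in the line reached 20 CPM were compared, and a 2-fold ratio was counted as a difference, with no test, since 1 line per condition gives 1 sample and the groups were set by detection. Intervals of ratios are exact conditional 95% intervals, which cover counting error of reads only. They cover neither molecules, which these libraries do not identify, nor the spread between cells. A count of 0 allows up to 3 counts. The share of pairs counts ties as equal parts. Thinning drew counts without replacement with seed 1. The ratio step was tested on simulated data. No pair of cells had identical counts (0 pairs).

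The 37 gene lists, 5 of them markers of other cell types, and the members were chosen with earlier results of these data known. Named genes are the 12 largest ratios each way among those past 2-fold whose medians (plus 1 CPM) differ at least 1.5-fold the same way, the 2 members of highest mean CPM and the 2 of largest absolute ratio in each list, and identity markers. Other named genes stand for a role in their list and were chosen after their values were seen: Cdk1, Ube2c, Top2a, Ccnf, Cks2, Ccnb2, Cenpe, Mki67, Ccnd1 and Ccnd2, where outside the rule. Not every gene that the rule gives is described, and some are not reported here.

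Alternatives were thinning, cells of like depth, edgeR 4.0.16 TMM and DESeq2 1.42.0 median-of-ratios factors (R 4.3.3), used for scaling only, the authors' values, other summaries, limits, floors and folds, and protein-coding genes only. Python 3.11.15, numpy 2.4.6, pandas 2.3.3, scipy 1.17.1 and matplotlib 3.10.9 were used, with GENCODE M21 for gene records and RefSeq for promoters.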

Additional observations from a re-analysis of the deposited data

How the results depend on the processing

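No paired analysis was possible because a replicate number only names a cell here and the results come from no test. Of 543 list sums under all alternatives, 542 moved by less than 1 SD over cells and 1 by more: the ribosomal protein ratio, +0.31 with at most 1% on the rRNA locus. This SD is the log2 spread between cells within the groups, 1.533 for G2/M, 2.721 for naive pluripotency and 0.322 for ribosomal proteins. For G2/M it exceeds the size of the ratio, so that few moves could pass it. The count of 542 therefore does not measure how firm the ratios are. The alternatives on the rRNA locus and on G2/M sums were chosen after the values were seen. Over all alternatives the G2/M ratio lay between -1.25 and -0.52, G1/S between -0.94 and -0.13, actin and microtubules between -0.62 and -0.40, and ribosomal proteins between 0.31 and 0.74. Where the limits were applied to cells thinned to 3000000 counts, 47 cells were few-gene and 10 many-gene cells.

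The difference in detected genes was 1950 at 10 or more counts and 1925 at 1 CPM or more. Genes higher in few-gene and in many-gene cells were 112 and 3351 by medians of CPM per cell (plus 1), 945 and 1223 from 5 CPM, 27 and 84 from 100 CPM, 4193 and 4711 from a summed count of 10, 931 and 1362 at 1.5-fold, 34 and 189 at 3-fold, 491 and 879 among cells under the G2/M median and 607 and 1141 among the others. Genes higher in many-gene cells were 181 with limits on thinned cells and 1112 without the highest cell. The share of these genes that was higher in few-gene cells, 32.0% in the report, was 57.1% with limits on thinned cells, 15.2% without the highest cell and 3.23% by medians.

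Smaller ratios also turned sign, in 48 of 543 values of list sums (15 lists) and 146 of 2317 values of named genes (47 genes), among them replication-dependent histones (+0.79) at -0.22 with at most 1% on the rRNA locus, p53 targets (+0.16) at -0.38 and Otx2 (+0.27) at -0.53 in the sets divided by G2/M sum, and Epcam (+0.38) at -0.19 with limits on thinned cells. Ratios that were past 2-fold, or past 1 SD for lists, turned sign as follows, and the cause was not tested. By medians per cell the values were chromatin regulators (median member) -0.36, Trim71 -2.06, Rps10 -0.89, Sdf2l1 -3.57, Sfn 1.174, Ier3 -3.87, Kmt2d -0.72, Hist1h4d -0.13 and Hist1h3e -1.39. With limits on thinned cells they were Mtfr2 0.084, Fgf5 0.28, Egr1 1.136, Irf1 0.94, Cldn3 0.21 and Hist1h1b 0.38. With at most 1% on the rRNA locus they were chromatin regulators (median member) -0.068, Ier3 -0.79, Hist1h4d -0.56 and Hist1h3e -0.14. At G2/M sums at or over the median they were Fgf5 0.90 and Cdc45 0.19, and among cells of 4000000 to 6000000 counts Ier3 -0.88.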
